A study of Mus musculus with 7 samples.

Results

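The 10 genes described here serve the presentation of antigen to helper T cells: the class II chains H2-Aa, H2-Ab1 and H2-Eb1, their invariant chain Cd74, the peptide editor subunits H2-DMa and H2-DMb1, the transactivator Ciita, and the costimulators Cd80, Cd86 and Cd40. They were taken by symbol from the deposited table of 52224 genes, and all 10 were found. RNA was sequenced from haematopoietic stem cells, the bone marrow cells that renew the blood, sorted from wild-type C57BL/6J mice as lineage-negative cells with Sca-1, c-Kit and CD150 and without CD48. The cells were cultured for 48 h with gemcitabine at 0.5 µM (Gem, n = 2 libraries), with hydroxyurea at 100 µM (HU, n = 2) or with DMSO (n = 3), the solvent control. Both drugs slow DNA replication: gemcitabine as a nucleoside analogue of deoxycytidine, hydroxyurea by blocking the enzyme that makes deoxynucleotides. No label ties a library to a mouse or a culture, and p-values thus refer to library-to-library spread, part or all of which may be technical.

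Class II molecules are pairs of an alpha and a beta chain that carry peptides from the endosomes to the cell surface, where CD4+ T cells read them. In the endoplasmic reticulum the invariant chain fills their groove, and in the endosome H2-DM exchanges its last fragment for antigen peptides. The class II, invariant chain and H2-DM genes share an upstream module, in which RFX, CREB and NF-Y proteins bind X and Y boxes and recruit CIITA, the coactivator that sets their level. Besides dendritic cells, B cells and macrophages, haematopoietic stem and progenitor cells are known to carry class II molecules.

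Values are FPKM (fragments per kilobase of transcript, scaled to the mapped fragments of the library) as the authors deposited them, and the depth of the libraries is unknown. The FPKM of all genes summed to 703016 and 729258 in Gem, 647760 and 651315 in HU, and 818775 to 832979 in DMSO. Genes above 0 FPKM numbered 29158 and 27887 in Gem and 31153 and 29687 in HU, against 21251 to 23047 in DMSO. Every drug library thus listed more genes than any DMSO library. This difference cannot be told apart from treatment, and its part in the changes below was not tested. Over 13865 tested genes the median log2 fold change against DMSO was -0.25 for Gem and -0.30 for HU. Changes are therefore given as deposited and after a trimmed-mean scaling of the libraries (called scaled), which brought those medians to 0.011 and 0.019. All 10 genes passed the filter for testing, which asked for 2 or more libraries at 1 FPKM or above. Cd80 passed it through DMSO 2 and DMSO 3 alone.

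Messages of the class II machinery were well above those of the costimulators. In DMSO Cd74 averaged 386 ± 65.1 FPKM (SD, n = 3), followed by H2-Ab1 at 233 ± 22.4, H2-Aa at 197 ± 24.1, H2-DMa at 161 ± 25.2, H2-Eb1 at 111 ± 13.4 and H2-DMb1 at 73.0 ± 7.77. Cd86 followed at 8.65 ± 1.06, Cd40 at 4.26 ± 0.0700, Ciita at 2.11 ± 0.196 and Cd80 at 1.09 ± 0.110. In this order H2-Ab1 and H2-Aa overlapped between libraries, as did H2-Aa and H2-DMa, and the other neighbours were separate. The order of the 10 means was the same in Gem and in HU. In HU the same neighbours overlapped, as did Cd40 and Ciita, and in Gem no neighbours did. FPKM is a value per transcript length, so levels can be set side by side between genes.

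**Figure D1:**
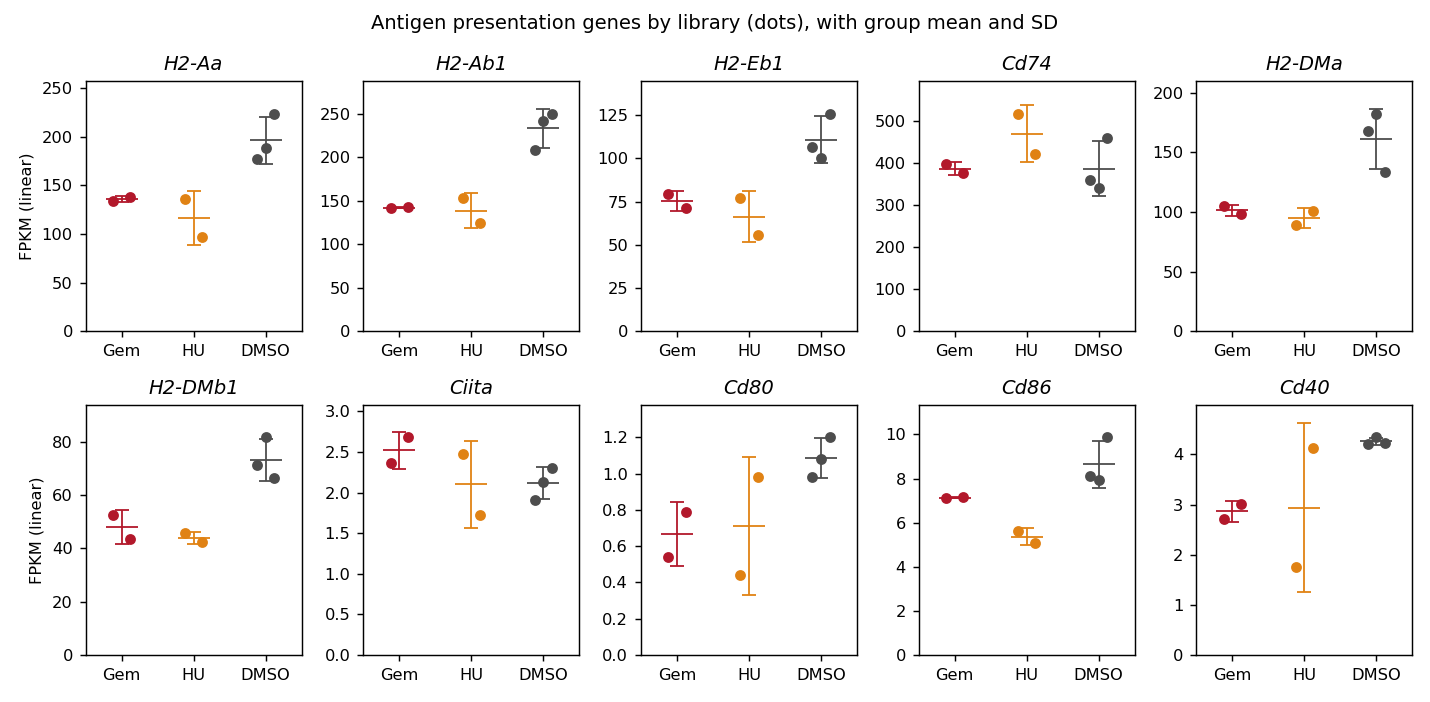
FPKM of each of the 10 genes (linear axes that start at 0) in the Gem, HU and DMSO libraries, with dots for libraries, dashes for group means and bars for the SD. For the 5 H2 genes, Cd86 and Cd40 every Gem and HU dot lies below every DMSO dot, whereas Cd74 and Ciita overlap with DMSO in HU.

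The H2 genes were lower with either drug as deposited. In the comparison of Gem with DMSO, on the effect of gemcitabine, 5 of the 10 genes fell and 0 rose (limma, Benjamini-Hochberg adjusted p below 0.05), and these were H2-Aa, H2-Ab1, H2-Eb1, H2-DMa and H2-DMb1. Of all genes tested 23.2% fell and 1.5% rose in that comparison. In HU against DMSO, the same question for hydroxyurea, 6 fell and 0 rose, the 5 H2 genes and Cd86, against 35.5% and 4.46% of all genes. The 2 comparisons share their DMSO libraries. After scaling 0 of the 10 fell in either drug, where 0.469% of all genes did in Gem and 5.27% in HU. At an unadjusted p under 0.05 in limma 3 were lower in Gem and 5 in HU. No share of all genes was taken at that threshold, so these counts are not read as a result about the 10 genes. In Gem 0 rose after scaling, where 0.483% of all genes did. With a correction for gene length and level 0 were called in Gem, where 0.44% of all genes were, and 1 rose in HU, Cd74, where 0.976% did.

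The Gem count varied with the libraries used, as did the calls over all genes. With all libraries 5 of the 10 fell, where 3213 of 13865 genes did. Without DMSO 1 the count was 2, where 1428 of 13675 genes fell. Without DMSO 2 it was 4, where 2044 of 13645 fell, and without DMSO 3 it was 3, where 3204 of 13701 fell. Without Gem 1 the log2 fold changes of the H2 genes were -0.73 to -0.50, and without Gem 2 they were -0.71 to -0.46. With 1 Gem library left the calls are not counted here, and these fold changes do not show that the calls hold. In HU 6 fell without any 1 of the DMSO libraries. Of all genes 3565 of 13675 fell without DMSO 1, 3906 of 13645 without DMSO 2 and 4672 of 13701 without DMSO 3. Without DMSO 3 Cd74 also rose in HU, as did 532 of 13701 genes.

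H2-Ab1, the beta chain of the A molecule, had 142 and 142 FPKM in Gem and 153 and 124 in HU, against 208, 242 and 250 in DMSO. Every drug library lay below every DMSO library, and the Gem libraries were nearly equal. The log2 fold change was -0.71 ± 0.11 (SE) in Gem (limma adjusted p = 0.00884) and -0.75 ± 0.11 in HU (adjusted p = 0.00297). After scaling it was -0.40 (adjusted p = 0.172) and -0.38 (adjusted p = 0.104), and the libraries still did not overlap.

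H2-Aa, the alpha chain that pairs with H2-Ab1, had 134 and 138 FPKM in Gem and 136 and 97.05 in HU, against 178, 188 and 224 in DMSO. HU 2 was the lowest library and DMSO 3 the highest, and the drug and DMSO libraries did not overlap. Its fitted log2 change was -0.52 ± 0.15 (SE) in Gem (limma adjusted p = 0.0447) and -0.76 ± 0.15 in HU (adjusted p = 0.00773). After scaling it was -0.22 (adjusted p = 0.567) and -0.40 (adjusted p = 0.196), and HU 1, at 156 scaled FPKM, lay above DMSO 1 at 154.

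H2-Eb1, the beta chain of the E molecule, had 79.3 and 71.3 FPKM in Gem and 76.9 and 55.9 in HU, against 107, 99.99 and 126 in DMSO. As for H2-Aa, HU 2 was the lowest and DMSO 3 the highest, without overlap. Its log2 fold change was -0.55 ± 0.15 (SE) in Gem (limma adjusted p = 0.0372) and -0.74 ± 0.15 in HU (adjusted p = 0.00820). After scaling it was -0.25 and -0.38 (adjusted p = 0.494 and 0.199), and HU 1 lay within the DMSO range. H2-Ea, the alpha chain of the E molecule, which C57BL/6 mice do not make because of a deletion in its promoter, was listed at 0.12 FPKM in HU 1, at 0.22 in DMSO 2 and at 0 in the other libraries. H2-Ea was chosen after its values were seen.

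The 3 chains kept similar proportions to each other. The ratio of H2-Aa to H2-Ab1 was 0.941 and 0.973 in Gem and 0.889 and 0.780 in HU, against 0.854, 0.779 and 0.894 in DMSO. The ratio of H2-Eb1 to H2-Ab1 was 0.558 and 0.501 in Gem and 0.502 and 0.449 in HU, against 0.514, 0.414 and 0.503 in DMSO. HU and DMSO overlapped in both ratios. Both Gem libraries lay above the DMSO libraries in the first ratio and overlapped with them in the second.

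Promoter windows held 300 bases, 250 before and 50 after the start. They were taken from RefSeq (GRCm38.p6) for 5 of the 10 genes: H2-Aa, H2-Eb1, H2-DMa, H2-DMb1 and Cd80. Those of H2-Aa, H2-Eb1 and H2-DMb1 are shown because each held an X-type motif followed by a Y-type motif. These genes were lower with either drug as deposited, and none of them was called after scaling. Each line runs 5′ to 3′ on the strand of the gene, and capitals mark CTNGNAACT (X type) and TGATTGG (Y type), patterns chosen with these windows in view and searched on both strands; the motifs do not overlap.
H2-Aa promoter: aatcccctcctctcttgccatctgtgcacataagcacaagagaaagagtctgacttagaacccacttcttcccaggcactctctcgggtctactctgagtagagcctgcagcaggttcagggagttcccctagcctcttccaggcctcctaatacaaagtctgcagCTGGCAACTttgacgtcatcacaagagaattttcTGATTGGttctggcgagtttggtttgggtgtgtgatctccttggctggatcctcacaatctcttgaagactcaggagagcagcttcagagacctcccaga
H2-Eb1 promoter: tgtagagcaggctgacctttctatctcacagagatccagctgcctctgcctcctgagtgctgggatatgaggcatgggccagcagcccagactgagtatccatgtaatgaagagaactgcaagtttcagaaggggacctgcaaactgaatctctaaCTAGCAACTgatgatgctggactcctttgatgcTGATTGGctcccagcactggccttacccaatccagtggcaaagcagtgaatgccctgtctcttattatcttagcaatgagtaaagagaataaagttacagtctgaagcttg
H2-DMb1 promoter: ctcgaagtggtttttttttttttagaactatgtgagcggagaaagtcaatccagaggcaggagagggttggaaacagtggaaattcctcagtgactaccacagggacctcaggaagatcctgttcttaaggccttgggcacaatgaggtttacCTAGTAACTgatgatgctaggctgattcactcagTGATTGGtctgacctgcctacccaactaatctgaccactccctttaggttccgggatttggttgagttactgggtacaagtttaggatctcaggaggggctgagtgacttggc

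The H2-Aa window is chr17:34287774-34288073 on the minus strand. The H2-Eb1 window is chr17:34305617-34305916 and the H2-DMb1 window chr17:34152941-34153240, both on the plus strand. The X-type motif began 84 bases before the start of H2-Aa, 94 before that of H2-Eb1 and 97 before that of H2-DMb1. Between it and the Y-type motif lay 25, 24 and 25 bases. Among 32851 windows of this length in the table, 4.10% held the X-type letters, 7.82% the Y-type letters and 0.350% both. An X-type motif followed on the gene's strand by a Y-type motif after 15 to 35 bases was found in 5 windows, 0.0152%, of which 3 are those printed. The letters were chosen with the printed windows in view, and the range of bases brackets the gaps found in them. Their 3 matches were thus certain beforehand, and this rarity is no evidence about these genes. A match describes letters and not binding. H2-DMa had windows at chr17:34122582-34122881 and at chr17:34125268-34125567, in a gene listed from 34119541 to 34139101. Neither they nor the window of Cd80 held either set of letters. Sequence outside these windows was not examined, so X and Y boxes elsewhere in H2-DMa would not be seen. Windows of the other genes, Cd74 among them, were not looked at one by one. Any of them among the 32851 windows were only counted in the shares above.

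H2-DMa and H2-DMb1 encode the alpha and beta subunits of the H2-DM peptide editor. H2-DMa had 105 and 98.1 FPKM in Gem and 88.7 and 101 in HU, against 168, 182 and 133 in DMSO. The drug libraries lay close together and below DMSO 3, the lowest of the DMSO libraries. On the log2 scale the change was -0.65 ± 0.13 (SE) in Gem (limma adjusted p = 0.0156) and -0.75 ± 0.13 in HU (adjusted p = 0.00516).

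H2-DMb1 had 52.5 and 43.4 FPKM in Gem and 45.5 and 42.2 in HU, against 71.1, 81.6 and 66.4 in DMSO. The groups did not overlap as deposited or after scaling. Its log2 fold change was -0.60 ± 0.12 (SE) in Gem (limma adjusted p = 0.0135) and -0.72 ± 0.12 in HU (adjusted p = 0.00375). On the scaled values H2-DMa was at -0.35 in Gem and -0.38 in HU, and H2-DMb1 at -0.30 in Gem and -0.36 in HU (limma adjusted p from 0.0811 to 0.217). H2-DMb1 shares sequence with its neighbour H2-DMb2, which was at 3.60 to 5.85 FPKM over the 7 libraries, and exons of H2-DMa overlap Brd2 on the other strand, which fell by 0.27 in Gem and 0.25 in HU on the log2 scale (limma adjusted p = 0.0368 and 0.0314) and was at 59.5 to 76.7 FPKM. The labels do not say that reads carry strand, so H2-DMa and Brd2 are not told apart where they overlap.

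In all, 7 of the 10 genes, the H2 genes, Cd86 and Cd40, were lower in every drug library than in any DMSO library, as were 42.6% of all genes tested. After scaling 3 were, H2-Ab1, H2-DMa and H2-DMb1, against 11.1% of all genes.

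**Figure D2:**
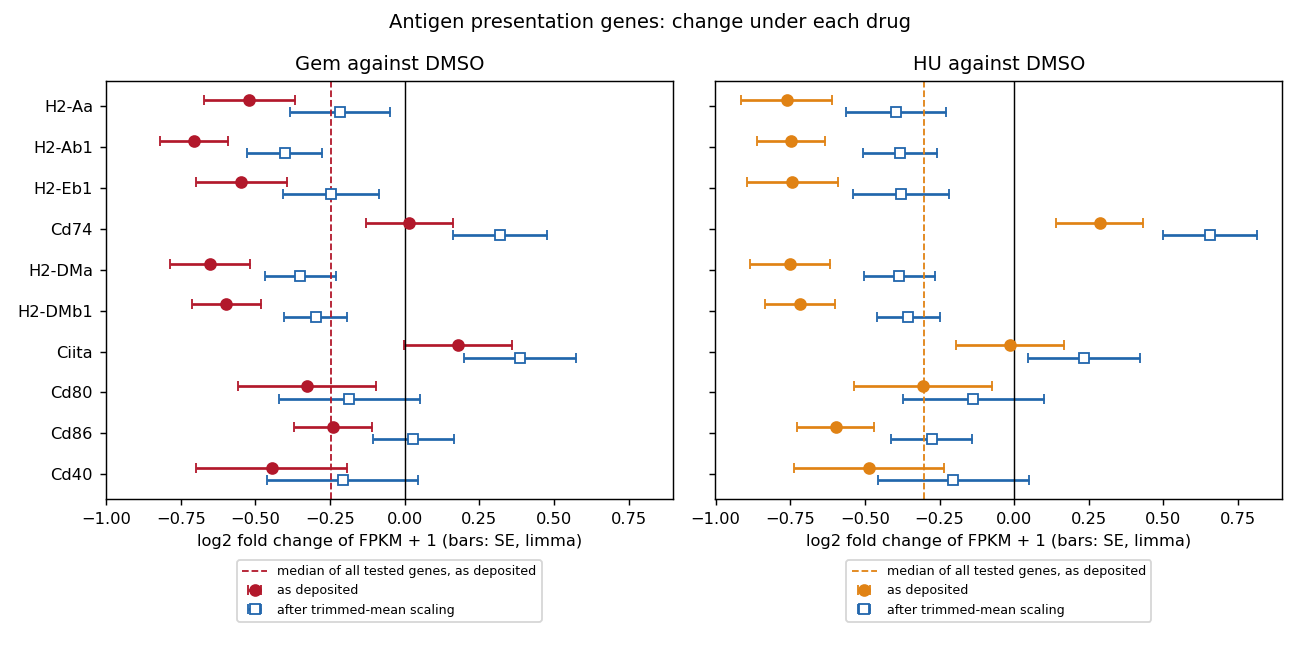
Log2 fold changes of FPKM + 1 with their SE (limma) for the 10 genes in Gem and in HU against DMSO, as deposited (filled) and after trimmed-mean scaling (open); the dashed line is the median of all tested genes as deposited, -0.25 in Gem and -0.30 in HU. As deposited the 5 H2 genes lie left of the dashed line, while Cd74 lies at 0.015 in Gem and 0.29 in HU.

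Cd74, the invariant chain, did not share this pattern. It had 397 and 376 FPKM in Gem and 517 and 421 in HU, against 358, 339 and 460 in DMSO. The Gem libraries lay within the range of DMSO, HU 1 was the highest of all libraries, and HU 2 lay below DMSO 3. The log2 fold change was 0.015 ± 0.15 (SE) in Gem (limma adjusted p = 0.951, 95% interval -0.33 to 0.36) and 0.29 ± 0.15 in HU (adjusted p = 0.156, 95% interval -0.054 to 0.63). After scaling it was 0.32 in Gem (adjusted p = 0.361) and 0.65 ± 0.16 in HU (adjusted p = 0.0427), so that Cd74 rose in HU on the scaled and not on the deposited values; of all genes 4.75% rose there. Without DMSO 3 Cd74 also rose in HU as deposited, by 0.42 (limma adjusted p = 0.0224). It was not called without DMSO 1 (0.24, adjusted p = 0.312) or without DMSO 2 (0.20, adjusted p = 0.337). The change was 0.14 without HU 1 and 0.43 without HU 2. Cd74 holds the microRNA gene Mir5107, which was listed at 0 in every library.

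Within a library the ratio of Cd74 to a class II chain does not depend on how the library is scaled. Cd74 per H2-Ab1 was 2.79 and 2.64 in Gem and 3.38 and 3.38 in HU, against 1.72, 1.40 and 1.84 in DMSO. Cd74 per H2-Aa was 2.97 and 2.72 in Gem and 3.80 and 4.34 in HU, against 2.02, 1.80 and 2.06 in DMSO. For both chains the ratio was highest in HU and lowest in DMSO, with no overlap between the 3 groups. Cd74 per sum of H2-Aa, H2-Ab1 and H2-Eb1 averaged 1.10 ± 0.0354 in Gem (SD, n = 2) and 1.46 ± 0.0778 in HU (n = 2), against 0.711 ± 0.0649 in DMSO (n = 3). These ratios were formed after the values were seen and are given without a test.

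**Figure D3:**
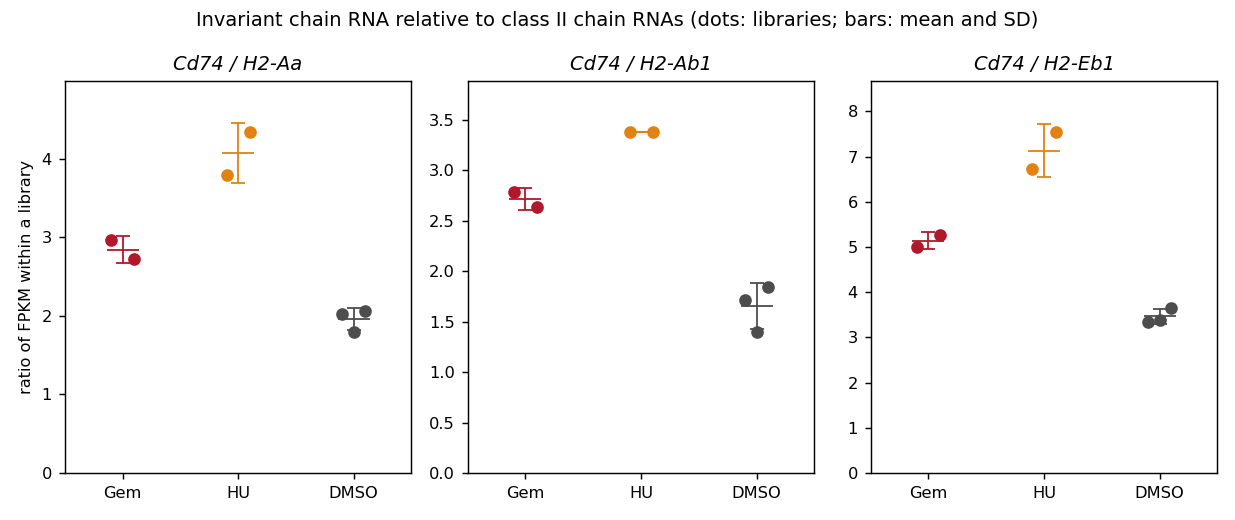
Ratio of Cd74 FPKM to the FPKM of H2-Aa, H2-Ab1 or H2-Eb1 within each library (linear axes that start at 0), with dots for libraries, dashes for group means and bars for the SD. In each panel the HU dots lie above the Gem dots and these above the DMSO dots; for H2-Ab1 both HU libraries are at 3.38.

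Ciita, the transactivator of these genes, was low in every library. It had 2.36 and 2.68 FPKM in Gem and 2.48 and 1.72 in HU, against 1.91, 2.13 and 2.30 in DMSO. Both Gem libraries lay just above DMSO, while HU 2 was the lowest and HU 1 above DMSO. Its fitted log2 change was 0.18 ± 0.18 (SE) in Gem (limma adjusted p = 0.500, 95% interval -0.24 to 0.60) and -0.015 ± 0.18 in HU (adjusted p = 0.953, 95% interval -0.44 to 0.41). Exons of Ciita overlap Dexi on the other strand, which was at 0.58 to 2.33 FPKM.

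Cd80 and Cd86 are the ligands of CD28 and CTLA-4, which give or withhold the second signal to a T cell, and Cd40 is the receptor for the CD40 ligand of helper T cells. Cd86 had 7.11 and 7.16 FPKM in Gem and 5.63 and 5.08 in HU, against 8.12, 7.95 and 9.87 in DMSO. The HU libraries lay below the Gem libraries, and these below DMSO. Its log2 fold change was -0.24 ± 0.13 (SE) in Gem (limma adjusted p = 0.210) and -0.60 ± 0.13 in HU (adjusted p = 0.0103), and after scaling it was 0.029 and -0.28 (adjusted p = 0.943 and 0.264). The call in HU was also lost without HU 2 (-0.54, adjusted p = 0.0559).

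Cd40 had 2.72 and 3.01 FPKM in Gem and 1.75 and 4.13 in HU, against 4.21, 4.34 and 4.23 in DMSO. The DMSO libraries were nearly equal, and the HU libraries stood farther apart than those of any other gene of the 10 relative to their mean. On the log2 scale the change was -0.45 ± 0.25 (SE) in Gem (limma adjusted p = 0.228) and -0.49 ± 0.25 in HU (adjusted p = 0.163). Without HU 2 it was -0.94 in HU (adjusted p = 0.0160), so that the HU value of Cd40 depends on which library is used.

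Cd80 had 0.54 and 0.79 FPKM in Gem and 0.44 and 0.98 in HU, against 0.98, 1.08 and 1.20 in DMSO. Both Gem libraries lay below DMSO, and HU 2 equalled DMSO 1. The log2 fold change was -0.33 ± 0.23 (SE) in Gem (limma adjusted p = 0.326) and -0.30 ± 0.23 in HU (adjusted p = 0.327), on a scale that understates changes of genes at this level.

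Gem against HU asks whether the drugs differed, and 0 of the 10 genes passed in limma, as deposited or scaled, where 0.101% and 0.130% of all genes did. As deposited 1 gene, Cd86, had an unadjusted p under 0.05, with a log2 difference of 0.36 ± 0.14 (SE, limma adjusted p = 0.429, 95% interval 0.026 to 0.69). The share of all genes at that threshold was not taken here either. For Cd74 the difference was -0.27 (95% interval -0.64 to 0.10), and both Gem libraries lay below both HU libraries. For H2-Ab1 the interval ran from -0.25 to 0.33 and for H2-DMb1 from -0.18 to 0.42. The interval was widest for Cd40, from -0.61 to 0.69.

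The tested genes of most similar pattern were found by the root mean square difference of log2(FPKM + 1), each gene centred on its own mean over the 7 libraries. For H2-Ab1 these were Dlgap5, Spryd3 and Usp16 (0.0781, 0.0821 and 0.0845), and Dlgap5, for example, had 8.65 and 7.80 FPKM in Gem and 9.11 and 7.02 in HU, against 11.25, 13.3 and 13.7 in DMSO. By this measure H2-Aa was the 51st of 13864 genes in likeness to H2-Ab1, H2-Eb1 the 122nd and H2-DMb1 the 254th. H2-DMa was the 2346th, after Cd86 at the 2151st, and Ciita was the 10064th and Cd74 the 10995th. For Cd74 the closest were Vezt, Kctd3 and Glis3 (0.0592, 0.0711 and 0.0791), all of lower level than Cd74 and likewise high in HU 1 and DMSO 3. For Cd86 they were Ncbp2, Rsrc2 and Fabp3 (0.0452, 0.0503 and 0.0526).

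Other genes of the pathway were taken from 9 lists with 86 genes, of which 78 were tested. In Gem 20 fell and 0 rose, where 23.2% of all genes fell and 1.5% rose. The median log2 fold change was -0.24 beside -0.25 for all genes. In HU 38 fell and 1 rose, where 35.5% of all genes fell and 4.46% rose, with a median of -0.34 beside -0.30. After scaling 0 fell and 1 rose in Gem, and 3 fell and 3 rose in HU. Of all genes 0.469% fell and 0.483% rose in Gem then, and 5.27% and 4.75% in HU. At an unadjusted p under 0.05 in limma 13 passed in Gem and 20 in HU after scaling, with no share of all genes taken at that threshold. Every count of called pathway genes or markers below is to be set against these shares of all genes. As deposited 23.2% fell in Gem and 35.5% in HU, and after scaling 0.469% and 5.27%. A count near its share is not read as a result about its list.

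**Figure D4:**
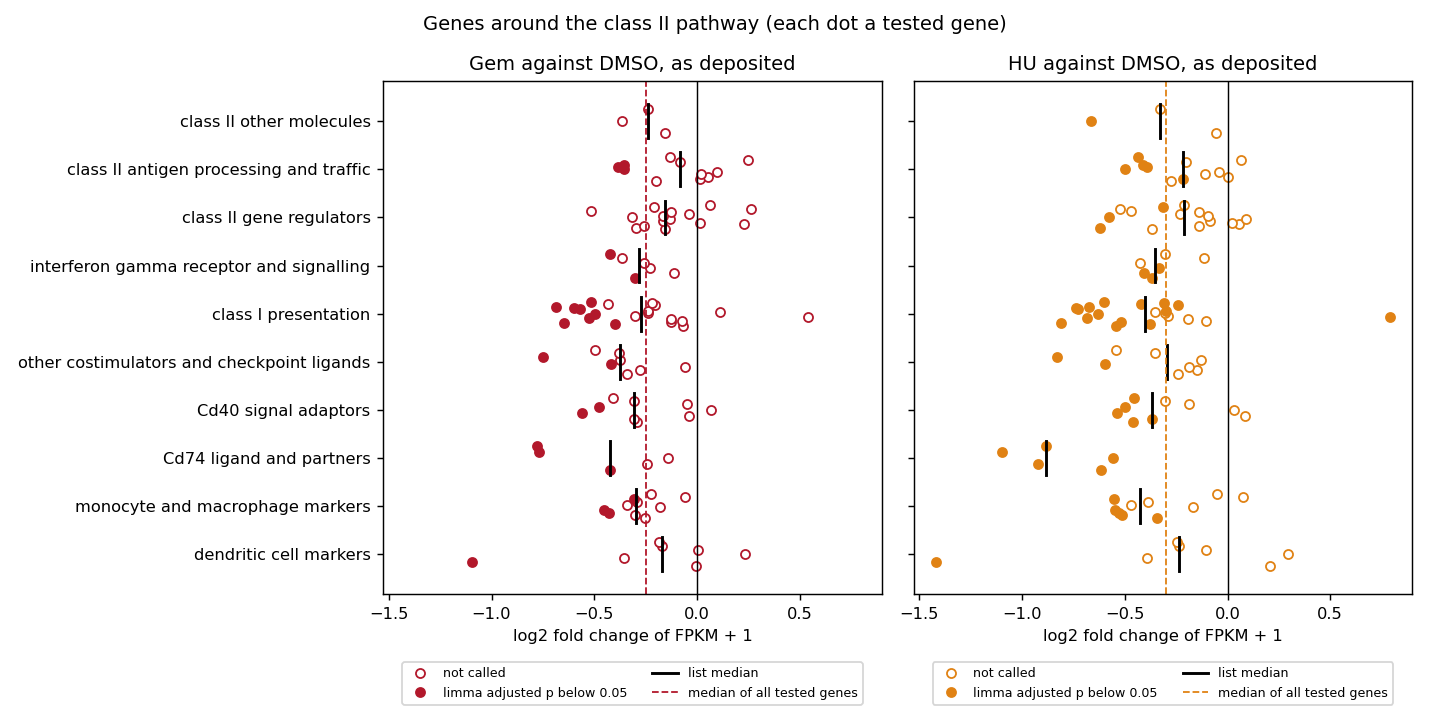
Log2 fold changes of FPKM + 1 as deposited for the tested genes of 8 pathway lists and 2 lists of cell type markers, in Gem and in HU against DMSO; filled dots passed limma, black bars are list medians and the dashed line is the median of all tested genes. Most lists centre near the dashed line, and the ligand and partners of Cd74 have medians of -0.42 in Gem and -0.88 in HU.

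Of 11 genes of antigen processing and traffic 3 fell in Gem and 5 in HU as deposited, and 0 after scaling. Ctss, the protease that trims the invariant chain, averaged 713 FPKM in Gem and 647 in HU, against 913 in DMSO (limma adjusted p = 0.0422 and 0.00822). Lgmn, an endosomal protease, fell in both drugs (-0.36 and -0.41, limma adjusted p = 0.0180 and 0.00600), as did Ifi30, the endosomal thiol reductase (-0.38 and -0.39, adjusted p = 0.0251 and 0.0143). Sppl2a, which clears the membrane stub of the invariant chain, fell in HU (-0.44, limma adjusted p = 0.00863). Ctsd, the most abundant of the list, was at 2710 FPKM in Gem and 2460 in HU, against 2530 in DMSO, and did not pass. Of the other class II molecules H2-Oa, a subunit of the inhibitor of H2-DM, fell in HU as deposited (-0.66, limma adjusted p = 0.0204, and 0.269 after scaling), and H2-Ob, its partner and the more abundant in the mean of the libraries, was at 6.04, 5.64 and 7.34 FPKM in Gem, HU and DMSO.

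Of 15 regulators 0 fell in Gem in limma and 3 fell in HU: Crebbp, a histone acetyltransferase that CIITA recruits (-0.62, limma adjusted p = 0.00277), Nfyb, a subunit of NF-Y (-0.58, adjusted p = 0.0103), and Spi1, the factor PU.1 (-0.31, adjusted p = 0.0262). None of these 3 passed after scaling. Irf1, an interferon-induced factor that acts on Ciita, was at 52.9 and 47.4 FPKM in Gem and 41.1 and 47.6 in HU, against 44.8, 41.1 and 41.8 in DMSO. Irf1 rose on the scaled values alone, by 0.53 in Gem (limma adjusted p = 0.0413) and 0.42 in HU (adjusted p = 0.0237); it was chosen after its values were seen. Irf8, the most abundant regulator, also rose in HU after scaling, by 0.28 (adjusted p = 0.0497), and averaged 283 FPKM in HU and 301 in DMSO as deposited. The RFX subunit genes Rfx5, Rfxank and Rfxap, chosen likewise, passed in neither drug, with log2 fold changes of -0.14, -0.47 and -0.52 in HU as deposited.

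Of 6 tested genes for the interferon gamma receptor and its signalling 2 fell in Gem and 3 in HU as deposited, and 0 after scaling. Ifngr1, the ligand-binding chain, had 207 and 192 FPKM in Gem and 191 and 191 in HU, against 253, 246 and 240.2 in DMSO. It changed by -0.30 in Gem and -0.37 in HU (limma adjusted p = 0.0185 and 0.00539), and by -0.0010 and -0.0006 after scaling. Ifngr2, the second chain, and Jak1, a kinase of the receptor complex, fell in HU (-0.41 and -0.33, limma adjusted p = 0.0177 and 0.0183), and Socs3, an inhibitor of JAK signalling, fell in Gem (-0.42, adjusted p = 0.0377).

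Of 5 genes for ligands and partners of the invariant chain 3 fell in Gem and 5 in HU as deposited, and 0 in Gem and 2 in HU after scaling. Mif, the cytokine that binds CD74, averaged 487 FPKM in Gem and 452 in HU, against 835 in DMSO, a log2 change of -0.78 in Gem and -0.88 in HU (limma adjusted p = 0.00582 and 0.00123), or of -0.47 and -0.51 after scaling (adjusted p = 0.0534 and 0.0140). Its homologue Ddt fell by 0.77 in Gem and 1.10 in HU on the log2 scale (limma adjusted p = 0.0123 and 0.00192), and after scaling was at -0.47 in Gem and -0.74 in HU (adjusted p = 0.141 and 0.0184). Cd44, the signalling partner of CD74, fell in both drugs (-0.42 and -0.61, limma adjusted p = 0.0149 and 0.00217), and Cxcr4, another partner, fell in HU (-0.56, adjusted p = 0.0221). Neither passed after scaling (Cd44 adjusted p = 0.519 in Gem and 0.109 in HU, Cxcr4 0.419 in HU).

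Class I presentation shows cytosolic peptides to CD8+ T cells. As deposited 8 of its 20 genes were lower in Gem, where 23.2% of all genes were. In HU 14 were lower and 1 higher, where 35.5% and 4.46% of all genes were. After scaling 0 were called in Gem, and 1 lower and 1 higher in HU. Canx, a chaperone of class I chains, had 208 and 187 FPKM in Gem and 166 and 187 in HU, against 324, 323 and 284 in DMSO, and fell in HU after scaling too (-0.44, limma adjusted p = 0.0177). The immunoproteasome subunits Psmb8 and Psmb10 fell by 0.60 and 0.57 in Gem and by 0.74 and 0.73 in HU on the log2 scale as deposited (limma adjusted p from 0.00271 to 0.0129). H2-Q7, a class Ib chain, also fell in both (-0.50 and -0.63, adjusted p = 0.0186 and 0.00470), but its reads may be shared with close relatives. B2m, the class I light chain, was at 4850 FPKM in Gem, 3500 in HU and 5100 in DMSO, and changed by -0.07 in Gem and -0.54 in HU (limma adjusted p = 0.680 and 0.00915). The 1 gene that rose in HU was H2-Q4, which is also uncertain for that reason, at 3.33 and 2.08 FPKM in HU against 1.14, 1.03 and 1.17 in DMSO (0.79, adjusted p = 0.0204).

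Of 8 tested costimulators and checkpoint ligands beyond the members, 2 fell in each drug as deposited. These were Lgals9, a ligand of TIM-3, and Tnfrsf14, the receptor HVEM, which changed by -0.42 and -0.75 in Gem (limma adjusted p = 0.0408 and 0.0231) and by -0.60 and -0.83 in HU (adjusted p = 0.00751 and 0.00962). Of 9 adaptors of CD40 signalling 2 fell in Gem and 5 in HU as deposited. After scaling 0 of either list passed. Traf2 and Tnfaip3 fell in both (-0.48 and -0.56 in Gem, limma adjusted p = 0.0376 and 0.0482; -0.50 and -0.54 in HU, adjusted p = 0.0217 and 0.0389), and Traf6, Birc2 and Birc3 were called in HU (-0.45, -0.46 and -0.37, adjusted p = 0.0307, 0.0263 and 0.0457). Cd28, a receptor of CD80 and CD86, was at 6.89 FPKM in Gem, 6.47 in HU and 7.63 in DMSO. Cd40lg was listed at 0.10 in HU 1 and Ctla4 at 0.13 in DMSO 2, and both at 0 in the other libraries.

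Markers of other cells that carry class II molecules were measured beside these genes, and their part in the results was not tested. In bulk RNA fewer cells of a type and less RNA per cell cannot be told apart. The 10 monocyte and macrophage markers summed to 896 and 951 FPKM in Gem and 830.3 and 913 in HU, against 1121 to 1245 in DMSO, with no marker at 0 in all libraries. Of these 3 fell in Gem and 5 in HU, among them Cd68 (336, 314 and 459 FPKM in Gem, HU and DMSO), Itgam and Cd14, with Ccr2 called in HU and at -0.30 in Gem (limma adjusted p = 0.0305 and 0.177), and 0 passed after scaling, with a median of -0.0049 in Gem and -0.13 in HU. The 10 dendritic cell markers summed to 39.7 and 40.4 FPKM in Gem and 34.3 and 43.5 in HU, against 42.7 to 56.2 in DMSO. Siglech, of plasmacytoid dendritic cells, led them at 20.1, 19.3 and 23.4 FPKM, Xcr1, of the cross-presenting type, was at 0.03 to 0.55, and Ccr7, of migrating cells, fell to 2.51 in Gem and 1.72 in HU, against 6.27 in DMSO (limma adjusted p = 0.0366 and 0.00955, and 0.211 and 0.0544 after scaling).

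Of the B cell markers Cd79a, Ms4a1, Pax5 and Ebf1 stood at 0.70 FPKM or less in every library, and Cd79b was at 18.6 and 18.1 FPKM in Gem and 18.9 and 16.1 in HU, against 27.5, 24.6 and 22.9 in DMSO, and fell in both drugs as deposited (limma adjusted p = 0.0316 and 0.0116) but not after scaling (0.596 and 0.465). The 6 T cell markers summed to 5.38 FPKM at most. The 10 neutrophil markers summed to 12176 and 15121 FPKM in Gem and 11394 and 11900.2 in HU, against 11348 to 18243 in DMSO. Of these S100a8 had the highest mean over the 7 libraries, and Ly6g was at 0.26 to 0.76 FPKM. Of 9 tested neutrophil markers Ctsg fell in Gem, and Ctsg and S100a9 in HU, as deposited, and 0 after scaling. Mpo and Ltf were above DMSO in the mean with either drug as deposited and were not called. Ly6g, Mpo and Ltf were chosen after their values were seen. The 7 mast cell and basophil markers summed to 255 and 440 FPKM in Gem and 231 and 237 in HU, against 317 to 1417 in DMSO, led by Prss34, and Fcer1a, Gata2 and Cpa3 fell in HU as deposited (limma adjusted p = 0.00784, 0.0172 and 0.0191), of which Fcer1a passed after scaling (0.0394). The 10 stem cell markers summed to 73.4 and 84.2 FPKM in Gem and 73.7 and 77.7 in HU, against 104 to 127 in DMSO. Of these Kit was the highest at 43.9 FPKM in DMSO, Ly6a and Kit fell in both drugs as deposited, Ly6a fell in HU after scaling too (limma adjusted p = 0.0297), the other 3 calls were lost after scaling, and Slamf1, the gene of the sorted protein CD150, was at 0.41 to 1.25. Summed FPKM of the neutrophil and of the monocyte and macrophage markers was thus above that of the stem cell markers in every library. Such sums of unlike genes do not give shares of cells.

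In the mouse annotation of build GRCm38, the assembly of mm10, the H2 genes lie close together on chromosome 17: H2-DMa (34119541 to 34139101), H2-DMb1 (34153072 to 34160230), H2-Ab1 (34257689 to 34269419), H2-Aa (34282744 to 34287823) and H2-Eb1 (34305867 to 34316674). H2-Aa is on the minus strand and the others are on the plus strand. Ciita (10480059 to 10528418, plus strand), Cd86 (36603869 to 36666081, minus strand) and Cd80 (38455561 to 38496335, plus strand) lie on chromosome 16, Cd40 on chromosome 2 (165055627 to 165072948, plus strand) and Cd74 on chromosome 18 (60803848 to 60812652, plus strand). FPKM covers whole genes, so exons and untranslated regions are not told apart.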

How the data were processed

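Gene expression of cultured stem cells was measured by RNA sequencing in 7 libraries. Per the labels' protocols, RNA was extracted with a miRNeasy kit, cDNA was amplified by Geo-seq and libraries were made with a TruePrep kit. The authors deposited 1 table of FPKM per gene, 0 columns of which were left unused; tools named in the submitters' processing notes, without roles, are Cufflinks 2.1.1, Bowtie 0.12.9, DESeq2 and HTSeq, with the build mm10. For annotation and depth, no source used here gives a value or name, so no counting intervals are given. FPKM of short genes is estimated poorly.

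Values were tested as log2(FPKM + 1) in limma 3.58.1 (R 4.3.3) with a mean-variance trend, 1 model of the 3 groups, two-sided tests and Benjamini-Hochberg adjustment over 13865 genes; calls are at 0.05. Scaling trimmed 30% of ratios and 5% of levels at each end. Exonic lengths came from GENCODE M21 (96.8% of tested genes). All 10 members are named; from each other list up to 4 genes with the smallest p among those called in either drug, and the most abundant, others being named as chosen after their values were seen. The members and lists were chosen with earlier results of these data known. Alternatives were another pseudocount, filters, scalings, variance models and library weights, the compared groups alone, a replicate block and leaving out each library; a length and level correction (loess, span 0.3) was added after seeing the data. Figures were drawn with matplotlib 3.10.9 in Python 3.11.15.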

Additional observations from a re-analysis of the deposited data

How the results depend on the processing

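Of the 10 genes, the number called in Gem against DMSO was 5 as deposited. It was 1 with no filter on low values, 0 on the TPM scale, with quantile normalization, with trimmed-mean scaling and with the length and level correction, 3 with no mean-variance trend, and 0 to 5 when a library was left out. Of all genes 1286 of 39614 fell in Gem with no filter and 1902 of 13865 with no mean-variance trend. On the TPM scale 333 of 13865 fell, and with quantile normalization 20 did. With a DMSO library left out, 1428 of 13675 genes fell at the least and 3204 of 13701 at the most. In HU against DMSO the number called was 6 as deposited. It was 1 on the TPM scale, with quantile normalization, with trimmed-mean scaling and with the length and level correction, each time Cd74 as higher. Of all genes 650, 311 and 659 of 13865 and 131 of 13416 rose in these settings, in that order. When a DMSO library was left out 6 fell each time, where 3565 of 13675 genes did at the least and 4672 of 13701 at the most. Without DMSO 3 Cd74 also rose, as did 532 of 13701 genes. With a replicate block 4 fell in Gem, where 2743 of 13865 genes did. In HU 6 then fell and 1 rose, Cd74, where 4376 of all genes fell and 459 rose. The numbers do not pair the samples by the labels, and the deviations of same-numbered Gem and HU libraries correlated at -0.074 over 2 pairs. With 2 libraries in each drug the second pair mirrors the first, so this value cannot decide on pairing. In Gem against HU it was 0 in every setting run. With the length and level correction the H2 genes changed by -0.29 to -0.10 in Gem and by -0.24 to -0.14 in HU (limma adjusted p from 0.313 to 0.836), and Cd74 by 0.91 in HU (0.0468). The cause of these differences was not tested.

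Directions of differences that were not called turned as follows. When a library was left out, the log2 changes of these genes reached 0.15 for Cd74 in Gem against DMSO, -0.19 for Ciita in HU against DMSO, and, in Gem against HU, 0.48 for H2-Aa, 0.19 for H2-Ab1, 0.42 for H2-Eb1, 0.25 for H2-DMb1, -0.25 for Cd80 and 0.49 for Cd40 at the other end of their range. In Gem against DMSO, Cd74 was at -0.032 without DMSO 1, -0.071 without DMSO 2 and -0.024 without Gem 1, and Cd86 at 0.0030 with quantile normalization, 0.029 with trimmed-mean scaling and 0.031 with the length and level correction. In HU against DMSO, Ciita was at 0.22 on the TPM scale, 0.0037 with quantile normalization, 0.23 with trimmed-mean scaling, 0.016 with library weights, 0.028 with a replicate block and without DMSO 3, and 0.16 without HU 2. In Gem against HU, the TPM scale gave -0.097 for H2-Ab1, -0.040 for H2-DMa, -0.017 for H2-DMb1 and -0.062 for Cd40; quantile normalization gave -0.12 for H2-Ab1, -0.036 for H2-DMa and 0.12 for Cd80; trimmed-mean scaling gave -0.021 for H2-Ab1 and -0.0037 for Cd40; the length and level correction gave -0.11 for H2-Ab1, -0.033 for H2-DMa, -0.0037 for H2-DMb1 and 0.089 for Cd80. Without HU 2 the values were -1e-04 for H2-Aa, -0.10 for H2-Ab1, -0.031 for H2-Eb1 and 0.21 for Cd80, without Gem 1 -0.014 for H2-DMb1 and 0.084 for Cd80, without Gem 2 -0.014 for Cd40, and without HU 1 -0.41 for Cd40.

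With 2 libraries in each drug and an unknown depth, changes of the low genes Cd80, Ciita and Cd40 were not detectable unless large.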
